A study of Homo sapiens with 2 samples.

Results

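The mitochondrial protein import machinery was followed in PC-3 cells, a human prostate cancer line that grows without androgen, after exposure to 10 µmol/L riccardin D (RD), a macrocyclic bisbibenzyl from a liverwort, for 24 h. The members were all probe sets that the platform annotation pairs with 1 gene whose symbol begins with TIMM or TOMM, plus those of PAM16, SAMM50, MTX1, MTX2 and GRPEL1. They comprised 51 of the 54613 probe sets on the array and 28 of the 19775 genes named by a single-gene probe set. RNA from RD-treated cells and from control cells, which according to the treatment protocol were given the DMSO vehicle for 24 h, was read on 1 Affymetrix HG-U133 Plus 2.0 array each. The source label of the control describes those cells as not treated, so the vehicle rests on the protocol alone.

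Nearly all mitochondrial proteins are encoded in the nucleus, made in the cytosol and carried into the organelle. They enter through the TOM complex of the outer membrane and are then sorted. Proteins with a cleavable presequence pass through the TIM23 complex of the inner membrane, pulled by an ATP-driven motor on the matrix side. Metabolite carriers are escorted across the intermembrane space by the small TIM chaperones and inserted by the TIM22 complex, and beta-barrel proteins are placed in the outer membrane by the sorting and assembly machinery built on SAMM50. The machinery is essential in every cell type, and some of its subunits exist as 2 or more gene copies.

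The deposited values were MAS5 signals, which are linear intensities. The median signal over all probe sets was 67.8 on the RD array and 65.9 on the control array. Signals were judged against 66.9, the median over both arrays, which is called the floor. A gene counted as higher or lower if its brightest probe set differed at least 2-fold between the arrays with the higher signal at the floor or above it. With 1 array per condition no p-value can be given, the number of arrays limits the precision, and RD cannot be told apart from any other difference between the 2 cultures. The error that could be measured was how far probe sets of 1 gene scattered in their log2 differences (RD minus control). All probe sets were read on the same 2 arrays, so this scatter does not hold the error between replicate cultures. The SD of this scatter was 0.34 for 8576 probe sets that reached 377.4, the 75th percentile of all signals, and 0.76 for 18518 probe sets that reached the floor. Among markers of the cell line, the vimentin gene VIM and the keratin gene KRT18 were far above the floor on both arrays. KRT8 gave signals of 159.3 in RD-treated and 113.8 in control cells, and every probe set of the epithelial markers EPCAM, CDH1 and KRT19 lay under the floor on both arrays. Among prostate markers expected to be low in this line, KLK3 gave 230.6 in RD-treated and 131.4 in control cells by its brightest probe set, while its other 2 probe sets and all those of KLK2 lay under the floor. Of 7 markers of blood, endothelium and fibroblasts, 3 reached the floor. The part of these markers in the results was not tested.

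Of the import machinery genes, 4 had signals that differed at least 2-fold between the arrays. TOMM40L, TIMM17B and TIMM8B were lower and TIMM44 was higher in RD-treated cells. Of the 27 members that reached the floor, 3 were thus counted as lower (11.1%) and 1 as higher (3.70%). Over the 12818 genes at or above the floor, 13.3% were counted as lower and 12.1% as higher, and over the 8094 genes at or above the 75th percentile, 10.9% were lower and 9.91% were higher. The share of lower members was thus near that of all genes, the share of higher members was below it, and the list as a whole did not stand out by its counts. The median log2 difference of the members was -0.19, against -0.0022 over all genes, and 17 of the 27 members (63.0%) gave less signal after RD, against 50.1% of all genes. Of the 27, 16 differed less than 1.5-fold. Over all genes at or above the floor, the lower and upper quartiles of the log2 difference were -0.58 and 0.52, near 1.5-fold.

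**Figure D1:**
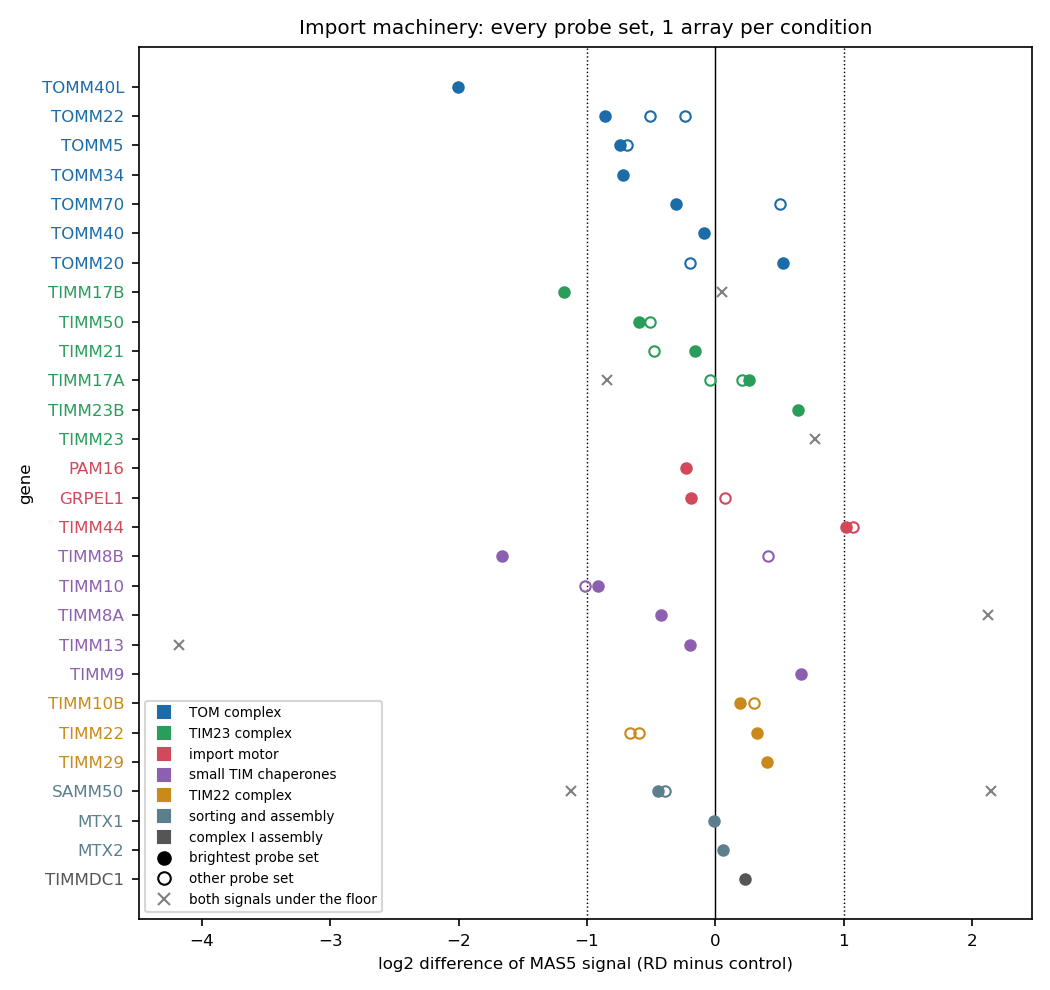
Difference in log2 signal (RD minus control, horizontal) of each of the 51 probe sets, by gene and colour-coded by role. Filled circles are the brightest probe set of a gene, open circles its other probe sets, grey crosses probe sets under the floor on both arrays, and dotted lines mark 2-fold. TOMM40L lies farthest to the left among the filled circles, at -2.01, and both probe sets of TIMM44 lie at or beyond the right dotted line.

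The TOM complex is the common entry gate. Of the 7 genes grouped with it, 6 (85.7%) gave less signal after RD by their brightest probe set, against 50.1% of all genes. The 6 include TOMM40, which was nearly level at -0.084. The median log2 difference was -0.72. Only genes with a single-gene probe set were read, so the 7 need not cover the whole complex. The 7 genes take in TOMM34, a cytosolic partner whose own value is this median, and TOMM70, whose probe sets disagree. Without TOMM34, a choice made after its value was seen, 5 of 6 genes gave less signal and the median was -0.52. The largest difference was in TOMM40L, a second copy of the gene for the channel protein, with a signal of 171.9 in RD-treated cells and 690.3 in control cells. This was 4.02-fold lower, and among the genes that reached the 75th percentile, 1.61% had a log2 difference below that of TOMM40L. It rests on 1 probe set. In contrast, TOMM40, which encodes the channel itself, stood at 1062.7 in RD-treated cells and 1126.2 in control cells, a ratio of 0.944.

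The receptors of the TOM complex did not move as 1 group. TOMM22, the receptor that also holds the complex together, gave lower signals by all 3 probe sets, at 1874.5, 1195.5 and 262.4 in RD-treated cells against 3404.7, 1407.7 and 372.7 in control cells. The brightest of these was 1.82-fold lower, short of 2-fold. TOMM20, the receptor for presequences, had 1 probe set at 10319.8 in RD-treated and 7150 in control cells and another at 6905.7 in RD-treated and 7934 in control cells. TOMM70, the receptor for carriers and other hydrophobic precursors, was likewise split, at 2923.1 in RD-treated and 3615.8 in control cells by its brightest probe set, and at 3357.5 in RD-treated and 2364.6 in control cells by the other. For neither TOMM20 nor TOMM70 do these arrays give a direction.

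The small subunit gene TOMM5 was lower by both of its probe sets, with signals of 6110.5 and 5411.3 in RD-treated cells against 10209.9 and 8711.6 in control cells. The ratios were 0.598 and 0.621. TOMM34, which encodes a cytosolic partner of the chaperones Hsp70 and Hsp90 and not a membrane subunit, was at 2154.4 in RD-treated and 3542.2 in control cells (1.64-fold lower).

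**Figure D2:**
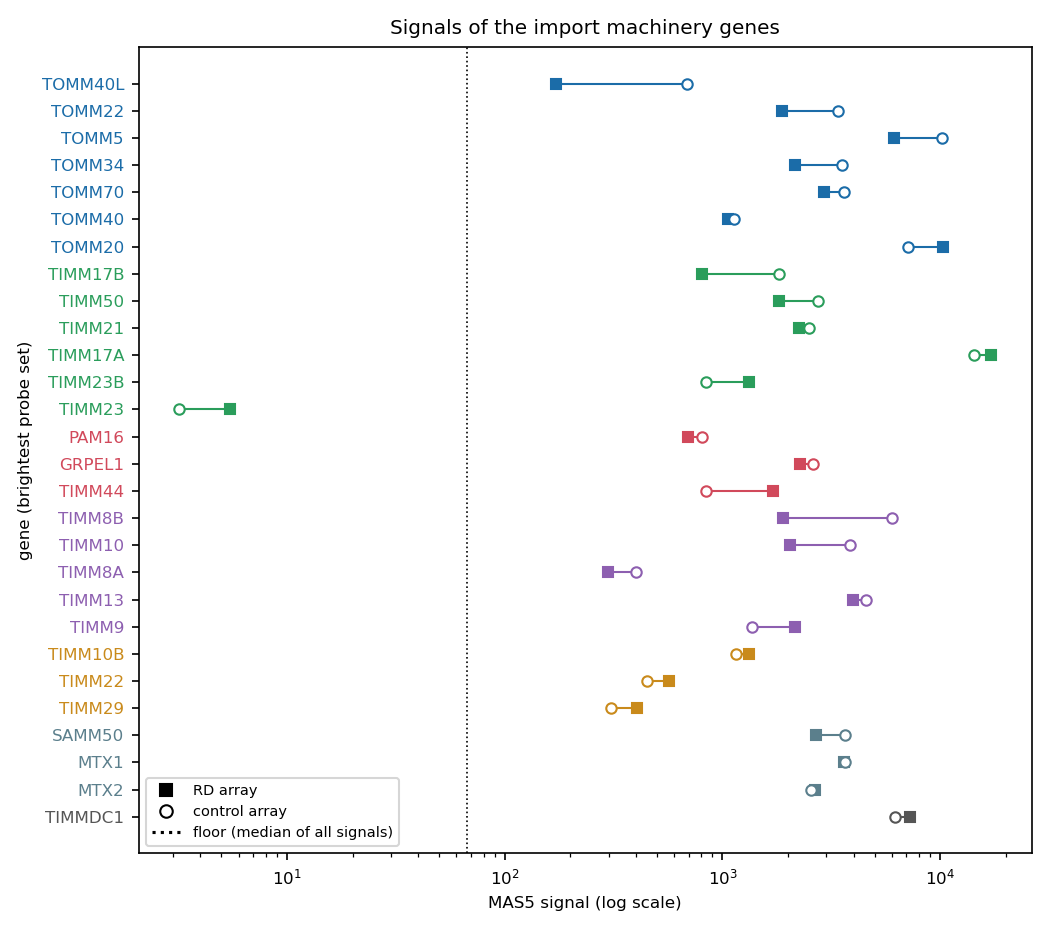
MAS5 signal (horizontal, log scale) of the brightest probe set of each member gene on the RD array (squares) and on the control array (circles), joined by a line and coloured by role. The dotted line is the floor of 66.9, TIMM23 alone lies under it on both arrays, and the longest lines among the other genes belong to TOMM40L and TIMM8B, with the square to the left of the circle.

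In the TIM23 complex, the presequence translocase of the inner membrane, the 2 gene copies of the TIM17 subunit differed. TIMM17B had a signal of 805.8 in RD-treated cells and 1827.6 in control cells, which was 2.27-fold lower, and 7.73% of the genes that reached the 75th percentile had a lower log2 difference. Its second probe set lay under the floor on both arrays. TIMM17A had 3 probe sets at or above the floor, with signals of 17188.6, 7125.2 and 232.7 in RD-treated cells against 14355.1, 6180.7 and 240 in control cells, and its brightest probe set was 1.20-fold higher. TIMM17B was therefore lower while TIMM17A was nearly level on the same 2 arrays.

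The other genes of this complex stayed short of 2-fold. TIMM50, which encodes the receptor that meets presequences as they leave the TOM channel, was at 1812.9 in RD-treated and 2734.4 in control cells (1.51-fold lower), and its second probe set was 1.42-fold lower. TIMM21, which tethers the TIM23 complex to the TOM complex, had ratios of 0.894 and 0.717. TIMM23B was at 1321 in RD-treated and 843.1 in control cells (1.57-fold higher). It is a near copy of TIMM23, the gene for the channel-forming subunit. The single probe set paired with TIMM23 alone gave 5.5 in RD-treated and 3.2 in control cells, far under the floor. A further 6 probe sets were paired with a TIMM or TOMM gene together with another gene and were left out. TIMM23 was therefore not measured above the floor here, and the signal of TIMM23B is uncertain because the 2 copies can share sequence.

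TIMM44, a part of the import motor, was the member counted as higher. Its product anchors the Hsp70 chaperone of the matrix at the exit of the TIM23 channel. Both of its probe sets differed more than 2-fold, with signals of 1707.8 and 1454.9 in RD-treated cells against 843 and 690.2 in control cells. These were 2.03-fold and 2.11-fold higher, and 9.54% of the genes that reached the 75th percentile had a larger log2 difference. The brightest probe set passed 2-fold by a narrow margin, and centring or quantile normalization of the arrays put its log2 difference at 0.996 and 0.978, just short of it. The 2 other members of the motor were nearly level. GRPEL1, which encodes the factor that releases nucleotide from the Hsp70, had ratios of 0.875 and 1.06, and PAM16, a regulator of the J protein of the motor, was at 691.4 in RD-treated and 809.7 in control cells.

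The small TIM chaperones form hexamers in the intermembrane space, 1 of TIMM9 with TIMM10 and another of TIMM8A or TIMM8B with TIMM13. Of these 5 genes, 4 (80.0%) gave less signal after RD by their brightest probe set, against 50.1% of all genes. Their median log2 difference was -0.43, and with so few genes the count says little. When probe sets marked for shared sequence were left out, 2 of 4 genes gave less signal and the median was -0.0078. TIMM10 was lower by both probe sets, with signals of 2044.8 and 1366 in RD-treated cells against 3853.2 and 2755.8 in control cells. The brightest was 1.88-fold lower and the other 2.02-fold lower, so the gene lay at the edge of the count. TIMM9, its partner in the hexamer, went the other way, at 2160.9 in RD-treated and 1361.3 in control cells (1.59-fold higher by its single probe set).

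Among probe sets at or above the floor, those of TIMM8B disagreed most widely of any member. Its brightest probe set read 1896.3 in RD-treated cells and 6003.4 in control cells, which was 3.17-fold lower. The other read 586.9 in RD-treated cells and 441.5 in control cells, which was 1.33-fold higher. The 2 probe sets differed by 2.07 on the log2 scale, and the brightest one carries a suffix that marks sequence shared with other transcripts. The count of TIMM8B as lower therefore depends on the probe set. Over the 26 probe sets of 13 member genes at or above the 75th percentile, the SD between probe sets of a gene was 0.52, and without TIMM8B it was 0.33. TIMM8A, the gene copy whose loss causes a deafness and dystonia syndrome, was at 298.8 in RD-treated and 401.5 in control cells by its brightest probe set, while the median over its probe sets gave a log2 difference of 0.85 that takes in a probe set under the floor. TIMM13 was at 3987.4 in RD-treated and 4561.2 in control cells.

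The 3 genes of the TIM22 complex, which inserts carriers into the inner membrane, all gave more signal after RD by their brightest probe set. Their median log2 difference was 0.33. Of all genes, 50.1% gave less signal, and a count over 3 genes says little. None reached 1.5-fold. TIMM29 was at 405.8 in RD-treated and 307.3 in control cells, and TIMM10B, a peripheral subunit, was 1.14-fold and 1.24-fold higher by its 2 probe sets. The channel gene TIMM22 was split, with 565.8, 320.3 and 204.3 in RD-treated cells against 450.8, 482.2 and 324.2 in control cells. Only the first of its 3 probe sets was higher.

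SAMM50, which encodes the beta-barrel protein that inserts other beta-barrels, had ratios of 0.733 and 0.763 by the 2 probe sets above the floor. Its partners MTX1 and MTX2 were level, at 3635.7 and 2649.7 in RD-treated cells against 3651.6 and 2541.3 in control cells. TIMMDC1, an assembly factor of respiratory complex I that shares only the name and a protein family with the translocases, was at 7276.8 in RD-treated and 6185.2 in control cells. Across all members, 14 genes had at least 2 probe sets at or above the floor. In 6 of them all these probe sets were lower in RD-treated cells, in 2 all were higher, and in 6 the direction was mixed.

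Several members have gene copies, and these were set side by side after their values had been seen. Among 8 families of import components, members and further import genes together, the log2 differences of the copies lay at least 1 apart in 5 and closer in 3. Over the 8094 genes at or above the 75th percentile of signals, the lower and upper quartiles of the log2 difference were -0.52 and 0.49. Genes of other families were not paired in this way, so the count does not mark a trait of import genes. In the TIM17 family the copies were 1.44 apart and in the TOM40 family 1.92 apart, with TIMM17B and TOMM40L as the lower copies. In the GrpE family, GRPEL2 had signals of 5484 in RD-treated and 2810.2 in control cells (1.95-fold higher), whereas GRPEL1 was level, a distance of 1.16. In the metaxin family, MTX3 was at 1678.7 in RD-treated and 709.9 in control cells (2.36-fold higher). Its distance from MTX1, the lowest of the 3 metaxin genes, was 1.25. The TIM8 copies were 1.24 apart by their brightest probe sets, a value that hangs on the probe set of TIMM8B described above. The copies of the motor J protein (DNAJC19 and DNAJC15), of the inner membrane peptidase (IMMP1L and IMMP2L) and the 2 homologous subunits of the processing peptidase (PMPCA and PMPCB) were 0.050, 0.27 and 0.29 apart.

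**Figure D3:**
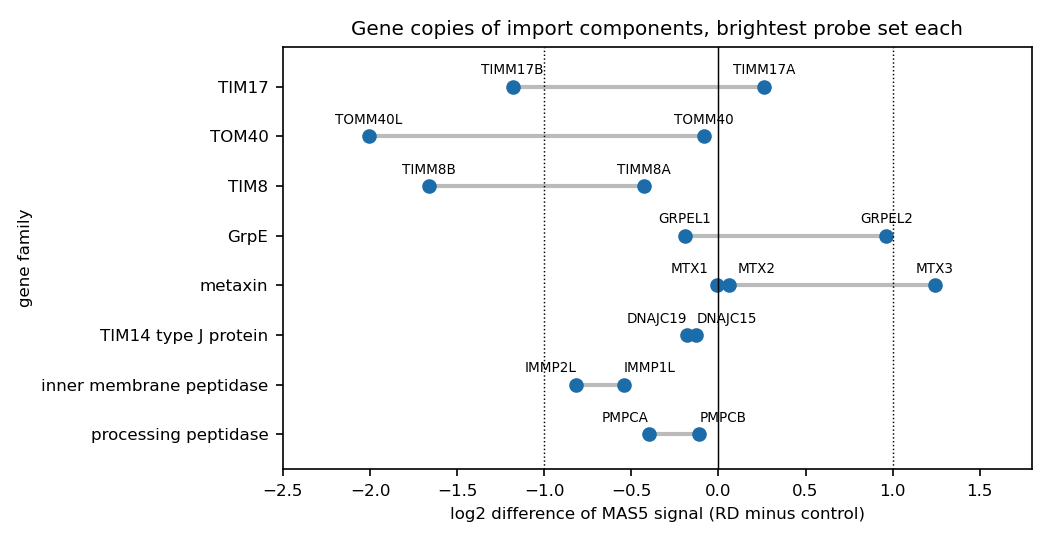
Difference in log2 signal (RD minus control, horizontal) of the gene copies in 8 families of import components, with each gene read by its brightest probe set. Grey lines join the copies of a family and dotted lines mark 2-fold. The copies lie at least 1 apart in the upper 5 families and closer together in the lower 3.

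The promoters of TIMM44, TIMM17B and TOMM40L, which were past 2-fold, are shown with that of TIMM17A, the level copy of TIMM17B, and that of TIMM10, which lay at the edge of 2-fold. Each is the 250 bases before the transcript start in RefSeq (build GRCh38.p14), read 5′ to 3′ on the strand of the gene. Capitals mark CCAAT or its complement ATTGG, the box bound by the factor NF-Y, and CCGGAAG or its complement CTTCCGG, a core bound by ETS factors such as GABP, which is known for nuclear genes of mitochondrial proteins. The windows are chr19:7943667-7943916 on the minus strand for TIMM44, chr1:201955253-201955502 on the plus strand for TIMM17A, chrX:48897769-48898018 on the minus strand for TIMM17B, chr1:161225810-161226059 on the plus strand for TOMM40L and chr11:57530755-57531004 on the minus strand for TIMM10.
TIMM44: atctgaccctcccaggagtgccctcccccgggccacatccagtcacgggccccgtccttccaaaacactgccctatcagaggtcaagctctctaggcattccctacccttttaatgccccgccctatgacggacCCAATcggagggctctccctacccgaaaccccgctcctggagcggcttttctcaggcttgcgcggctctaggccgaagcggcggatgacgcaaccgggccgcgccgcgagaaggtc
TIMM17A: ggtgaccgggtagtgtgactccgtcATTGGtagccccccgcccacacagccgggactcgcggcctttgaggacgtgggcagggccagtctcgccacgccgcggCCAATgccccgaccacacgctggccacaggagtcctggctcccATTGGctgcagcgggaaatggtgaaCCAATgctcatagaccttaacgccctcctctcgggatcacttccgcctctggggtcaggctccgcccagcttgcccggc
TIMM17B: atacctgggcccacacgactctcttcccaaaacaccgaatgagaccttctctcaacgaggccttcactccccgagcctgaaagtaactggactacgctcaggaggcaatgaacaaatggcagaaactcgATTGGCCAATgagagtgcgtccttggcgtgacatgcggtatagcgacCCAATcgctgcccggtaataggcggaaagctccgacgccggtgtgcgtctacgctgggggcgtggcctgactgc
TOMM40L: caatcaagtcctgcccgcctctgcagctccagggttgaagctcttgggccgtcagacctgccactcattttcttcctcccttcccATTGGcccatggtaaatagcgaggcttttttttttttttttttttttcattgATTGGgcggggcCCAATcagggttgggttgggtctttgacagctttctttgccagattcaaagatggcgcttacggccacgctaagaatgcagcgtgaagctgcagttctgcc
TIMM10: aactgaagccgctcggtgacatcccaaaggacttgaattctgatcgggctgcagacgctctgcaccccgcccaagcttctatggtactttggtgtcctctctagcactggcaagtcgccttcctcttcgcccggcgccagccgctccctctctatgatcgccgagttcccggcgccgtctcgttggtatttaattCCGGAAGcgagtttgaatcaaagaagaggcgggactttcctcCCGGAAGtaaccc

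The TIMM44 window held 1 CCAAT box, that of TIMM17A held 4, and those of TIMM17B and TOMM40L held 3 each, counted on both strands. The copies TIMM17A and TIMM17B both carried the box, and whether it has a part in their signals was not tested. TIMM10 held no CCAAT box and 2 ETS cores, whose first bases lie 55 and 13 bases before the start. Of 25 member genes with a promoter in the table, 10 (40.0%) held CCAAT or its complement, against 37.0% of all 27305 genes in it and 41.3% of the 10415 of these at or above the floor. A gene with several windows was counted once if any of them held the motif. The ETS core stood in 9 member genes (36.0%), against 10.2% of all genes and 18.5% of those at or above the floor. These 9 were TIMM10, TIMM10B, TIMM13, TIMM23, TIMM23B, TIMM29, TIMMDC1, TOMM20 and TOMM70. By brightest probe set, their log2 differences ran from -0.91 for TIMM10 to 0.65 for TIMM23B, and none reached 2-fold. TIMM23 is left out of this range because it lay under the floor. It and its near copy TIMM23B both count among the 9. TIMM44, TIMM17B and TOMM40L, whose windows are shown above, are not among the 9. The part of the ETS core in the signals was not tested.

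A further pair of motifs was searched on both strands. GCGCATGC, the core bound by the respiratory gene regulator NRF1, stood before PAM16 and TIMM9 (8% of member genes, against 3.22% of all genes and 5.45% of those at or above the floor). TGATGNAA, a motif of CHOP and ATF4 dimers, stood before TIMM22 alone (4%, against 3.89% of all genes and 2.49% of those at or above the floor). Matches of different motifs overlapped in 0 cases in the windows of the members. A match is a run of letters and not a measured binding site, and no binding was measured in these cells.

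Further genes of the import route were read from a list of 16 that act beside the members. None was counted as lower, against 13.3% of all genes, and 3 were higher (18.8%, against 12.1% of all genes), and the median log2 difference was -0.15. HSPA9, the matrix Hsp70 that TIMM44 anchors, was at 20728.7 in RD-treated cells and 9575.4 in control cells, which was 2.16-fold higher. A second bright probe set was at 15774.3 in RD-treated and 6764.8 in control cells (2.33-fold higher). The other HSPA9 probe sets that reached the floor were 1.79-fold and 1.41-fold higher, short of 2-fold. MTX3 and XPNPEP3, a peptidase that trims proteins after the presequence is cut, were 2.36-fold and 2.40-fold higher. At the low end, ROMO1, which encodes a small inner membrane protein, was 1.94-fold lower, and IMMP2L was 1.76-fold lower. CHCHD4, the gene for the oxidoreductase that traps the small TIM proteins in the intermembrane space, had a ratio of 0.861.

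Chaperones and proteases receive the imported proteins, and the list read here was named for the matrix. It also holds proteases outside the matrix, such as YME1L1, so its counts are not those of matrix genes alone. Of the 10 listed genes that reached the floor, 2 were counted as higher (20.0%, against 12.1% of all genes). None was counted as lower (against 13.3%), and the median log2 difference was 0.059. LONP1, the main ATP-dependent protease of the matrix, was at 2350.1 in RD-treated and 1084.3 in control cells (2.17-fold higher). YME1L1, an inner membrane protease known to remove the TIMM17A protein when translation is attenuated, was at 17909.4 in RD-treated and 8760 in control cells (2.04-fold higher). This was past 2-fold by the brightest probe set alone, and the 3 others of YME1L1 that reached the floor were 1.97-fold, 1.98-fold and 1.68-fold higher. The chaperonin genes HSPD1 and HSPE1 were 1.30-fold higher and 1.46-fold lower. TRAP1, the mitochondrial Hsp90, was 1.79-fold lower, so the higher signals were not shared by all chaperone genes of the matrix. In the same list, CLPX was 1.70-fold higher while CLPP, its proteolytic partner, had a ratio of 0.999.

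Of the 7 genes of MICOS, the inner membrane complex that shapes cristae junctions, 2 were counted as lower (28.6%, against 13.3% of all genes). The median log2 difference was -0.65, and -0.12 over the 5 genes left without probe sets marked for shared sequence. MICOS10 was at 4461.4 in RD-treated and 12604.9 in control cells (2.83-fold lower), and APOO was at 1061 in RD-treated and 2529.2 in control cells (2.38-fold lower). The only probe set of APOO carries the suffix of shared sequence, so APOO is not among those 5 genes. The core subunit gene IMMT had a ratio of 1.06.

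Genes of complex I and of the mitochondrial ribosome had lower medians than the import machinery. For 33 NDUF genes of complex I the median log2 difference was -0.78, and all 33 gave less signal after RD, against 50.1% of all genes. Of these, 10 were lower at least 2-fold (30.3%, against 13.3% of all genes). For 75 mitochondrial ribosomal protein genes the median was -0.43, with 62 lower in signal (82.7%, against 50.1% of all genes). Of the 75, 6 were counted as lower (8%, below the 13.3% of all genes). For 55 cytosolic ribosomal protein genes the median was 0.079. The median of the import machinery, -0.19, lay between those of complex I and mitochondrial ribosomal protein genes and that of all genes, and no test of the differences was possible with 1 array per condition.

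**Figure D4:**
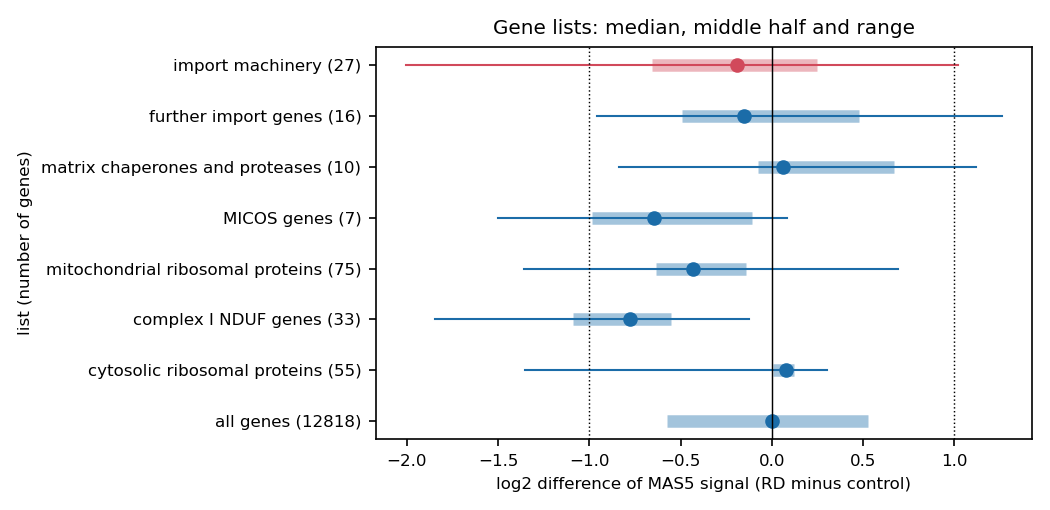
Difference in log2 signal (RD minus control, horizontal) by gene list, with the number of genes at or above the floor in brackets. Points are medians, thick bars run between the 25th and 75th percentiles, thin lines run from the lowest to the highest gene (not drawn for all genes), and dotted lines mark 2-fold. The import machinery (-0.19) lies between complex I (-0.78) or mitochondrial ribosomal protein genes (-0.43) and all genes (-0.0022).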

How the data were processed

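For 1 RD array and 1 control array the authors deposited linear intensities, made with MAS5 per the labels. For MAS5, neither a version nor a scaling target was given in the sources used here. Means without the highest and lowest 2% of signals, 495.9 on the RD array and 495.8 on the control array, showed that both arrays had been scaled alike, and no further scaling was applied. MAS5 subtracts mismatch probe signals, so ratios of dim probe sets are noisy. The dose was taken from the legend of the study's supplementary table, since the sample labels give none.

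Probe sets were named through the platform annotation. All 28 member genes matched RefSeq gene IDs (GRCh38.p14) and no symbol changed. Probe sets paired with several genes (1801) or with none (11721) were not used. The probe set with the highest mean log2 signal stood for its gene. Of the 51 member probe sets, 44 reached the floor, 24 carry a suffix of shared sequence, and 11 genes had 1 probe set. Percentages of genes beyond a member used genes at or above the 75th percentile. Promoter windows came from the RefSeq table.

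All members may be named in the text. Members past 2-fold, or whose probe sets at or above the floor disagree in direction, are given with each such probe set. Of the further lists, genes past 2-fold and up to 2 at each end are named. These are given by their brightest probe set, with other probe sets for HSPA9 and YME1L1 only. GRPEL2, CHCHD4, HSPD1, HSPE1, CLPX, CLPP, TRAP1, IMMT and the gene copies were named for their role after their values had been seen. The members and lists were chosen with earlier results of these data known. Alternatives were another scaling, offset, floor, threshold or choice of probe set. The calculations were tested on simulated data with large shifts in bright genes and less scatter than was measured here. That test does not bear on genes near 2-fold. Calculations ran in Python 3.11.15 with pandas 2.3.3 and numpy 2.4.6, and figures were drawn with matplotlib 3.10.9.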

Additional observations from a re-analysis of the deposited data

How the results depend on the processing

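The number of import machinery genes counted as higher was 1, and it was 0 after centring on the median, 0 after quantile normalization and 0 at a threshold of 3-fold, because TIMM44 lay close to 2-fold. At 1.5-fold, 8 members were lower and 3 were higher. Over all genes at or above the floor, the quartiles of the log2 difference were -0.58 and 0.52, which lie near 1.5-fold. Many genes outside the list thus also pass this threshold, and their share was not counted. Without probe sets that carry a shared-sequence suffix, TIMM8B turned to a log2 difference of 0.41, and the 3 lower genes of the 20 left were TIMM10, TIMM17B and TOMM40L. With the median of all probe sets in place of the brightest, the 2 lower genes were TOMM40L and TIMM13, whose second probe set lies under the floor, while TIMM17B stood at -0.56 and TIMM8B at -0.63. The median of the members stayed below 0 under each alternative, between -0.27 and -0.084. Signals under the floor are too dim to order, which leaves TIMM23 without a value. No paired analysis was possible because each condition had 1 array.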
